A study of Mus musculus with 26 samples.

Results

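Primordial germ cell-like cells (PGCLCs) are made in culture from epiblast-like cells (EpiLCs), and the first interval of that induction, from EpiLCs to day 2, was followed in 3 lines that carried a vector. The 6 libraries at these stages, of 26 in the series, were set against each other, and 15255 of the 50969 genes in the table were tested, those with a mean of at least 1 over the 12 libraries of the experiment. The 3 lines were 1 empty-vector control line and 2 Tex10 overexpression clones, called clone 1 and clone 2 here, all of strain 129Sv/J and labelled untreated at both stages. Each line gave 1 library per stage, so the lines are the replicates of the step, and the overexpression arm is 2 clones against 1 control line. The promoter that drove the transgene, the culture media and whether cells were sorted at day 2 are not given in the sources used here. The other libraries of the study cover later days of the same lines, a degron experiment in which a small molecule, dTAG13, was to deplete Tex10, and testis. The degron cells treated with the solvent DMSO are used below as a separate measurement of the same interval.

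EpiLCs are the culture counterpart of the post-implantation epiblast, the tissue that is poised to make all lineages. In the embryo, BMP signals from the extraembryonic ectoderm turn a few epiblast cells into germ cell precursors through the transcription factors Prdm1, Prdm14 and Tfap2c. These cells silence somatic genes, take up genes of naive pluripotency again and reset DNA methylation, while genes of later gametogenesis follow when the cells have reached the gonad.

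Values are TMM-scaled CPM, that is read counts scaled to a library size that the trimmed-mean (TMM) method adjusts. Where 3 values follow each other they are in the order empty vector, clone 1 and clone 2. Fold changes are differences of log2(value + 1), day 2 minus EpiLC, with line as a block, which understate the change of genes with low values. Standard errors (SE) and adjusted p-values are from limma, adjusted by the Benjamini-Hochberg method over the 15255 genes, and a gene was called higher or lower at an adjusted p under 0.05. The libraries of this interval held between 6610043 and 7484600 reads in the table, so that 1 read was worth between 0.137 and 0.154, and a floor of 3 reads lay between 0.412 and 0.462. Libraries of a stage correlated at 0.982 to 0.991 across genes, and every pair differed by more than counting noise, with a chi-square per gene from 1.83 (clone 1 and clone 2 EpiLCs) to 9.72 (empty vector and clone 2 at day 2). Tex10, the gene that the clones overexpress, was at 213, 394 and 385 in EpiLCs and 160.5, 368 and 329.8 at day 2, with both clones above the empty-vector line at each stage. Nothing in the labels says that the lines were grown on separate occasions, so p-values measure the spread between these libraries.

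Similar numbers of genes rose and fell between EpiLCs and day 2. Of the 15255 genes, 7059 (46.3%) were called. Day 2 was higher for 3683 of them (24.1%) and lower for 3376 (22.1%), and the median log2 fold change over all tested genes was 0.01. Which direction had more calls depended on the processing, with 52.2% of called genes higher here, 49.3% with median-ratio scaling, 49.9% with quantile normalization, 49.8% by DESeq2 and 48.9% without the filter. The counts on the gene lists below are to be read against these shares. The change had the same sign in 3 of 3 lines for 6896 of the called genes. In 6473 of them (91.7%) every day 2 library lay beyond every EpiLC library, and over all tested genes the day 2 libraries lay above in 4078 (26.7%) and below in 3737 (24.5%). A change of at least 1 on the log2 scale was shown by 1943 called genes (12.7%), 1096 higher (7.18%) and 847 lower (5.55%). It was reached in the same direction in each of the 3 lines by 1132 genes (7.42%), counted without a test. Across genes, which share their libraries, the changes in any 2 lines correlated with r from 0.784 to 0.826.

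**Figure D1:**
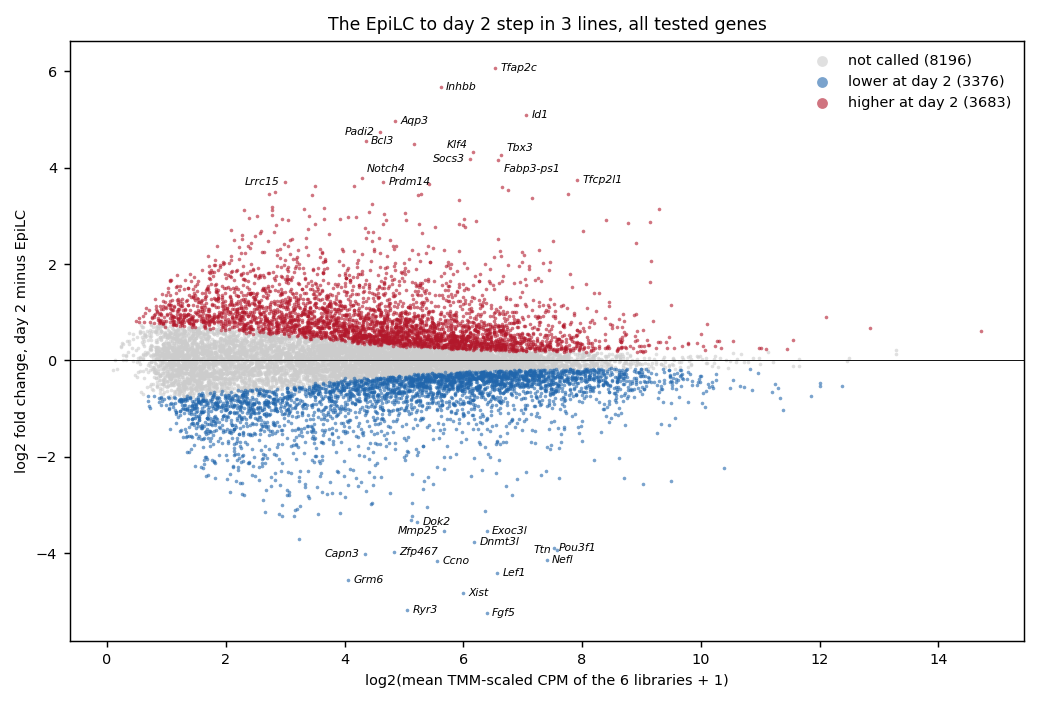
Log2 fold change from EpiLC to day 2 (vertical axis, log2(value + 1) scale) against the log2 of the mean TMM-scaled CPM of the 6 libraries plus 1 (horizontal axis) for the 15255 tested genes. Red marks the 3683 genes called higher at day 2, blue the 3376 called lower and grey the rest. Labels mark those of the 15 largest increases and 15 largest decreases under the naming rule that are named in the text, from Tfap2c at 6.07 to Fgf5 at -5.25.

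Most genes on the germ cell specification list, which also holds markers of early germ cells, rose. Of the 14 genes on this list, 11 were called higher and 1 lower, where 24.1% and 22.1% of all genes were, with a median log2 fold change of 1.83 beside 0.01 for all genes. Tfap2c (chr2:172549593-172558622 in GRCm38/mm10, plus strand), which encodes the transcription factor AP-2 gamma, was at 0.751, 2.53 and 2.2 in EpiLCs and 164, 188 and 192 at day 2. It was low in every EpiLC library and high in every day 2 library, and it had the largest increase of the named genes (log2 fold change 6.07, SE 0.192, adjusted p 1.13e-20). Prdm14, a zinc finger protein (chr1:13113457-13127163, minus strand) that acts against DNA methylation and for pluripotency, was at 4.06, 2.24 and 1.79 in EpiLCs and 40.5, 50.2 and 45.6 at day 2, so that the groups lay far apart (log2 fold change 3.69, SE 0.163, adjusted p 3.04e-17). Prdm1, the repressor BLIMP1, already had 17, 16.1 and 11.7 in EpiLCs and reached 28.4, 31.9 and 26.8. The groups did not overlap, but its step was smaller (log2 fold change 0.93, SE 0.144, adjusted p 4.38e-06).

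Kit, the receptor for stem cell factor on migrating germ cells, was at 10.5, 11.3 and 10.2 in EpiLCs and 65.9, 79.5 and 92.5 at day 2 (log2 fold change 2.77, SE 0.114, adjusted p 5.53e-18). Nanos3, an RNA-binding protein that keeps germ cells alive, rose from low values, 0.601, 1.64 and 0.687, to 6.18, 6.47 and 3.94 (log2 fold change 1.74, SE 0.28, adjusted p 8.14e-06). All 3 day 2 libraries lay above the EpiLC libraries for both genes. Sox15 (2.503), the membrane proteins Ifitm1 (2.11) and Ifitm3 (1.98), Tcl1 (1.92) and the surface integrin Itgb3 (1.31), which is used to sort these cells, were also called higher, and Alpl, tissue-nonspecific alkaline phosphatase, was called higher with 0.40. Dppa3 (Stella), a marker of established germ cells, did not pass the test. It was at 0.451, 1.79 and 1.24 in EpiLCs and 1.29, 1.39 and 5.15 at day 2, with clone 2 highest at day 2 and the other 2 lines within the range of the EpiLCs (log2 fold change 0.63, SE 0.34, adjusted p 0.133). Without the day 2 library of clone 1 its log2 fold change was 0.95 (adjusted p 0.0491), without clone 1 it was 1.06 (adjusted p 0.0493), but without the day 2 library of clone 2 it was 0.17 (adjusted p 0.744), and without clone 2 it was 0.22 (adjusted p 0.71). Dnd1, an RNA-binding protein of germ cells, was not called either (0.18, adjusted p 0.436). Lin28a, which blocks let-7 maturation, fell from 1009.8, 883 and 913 to 566, 469.7 and 494 (log2 fold change -0.88, SE 0.0772, adjusted p 1.5e-10). The day 2 label is thus met by 4 of the 5 PGCLC markers set for it, Prdm1, Tfap2c, Prdm14 and Nanos3, and not by Dppa3. In bulk libraries, fewer cells of a type and less RNA per cell cannot be told apart, which holds for all values here.

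**Figure D2:**
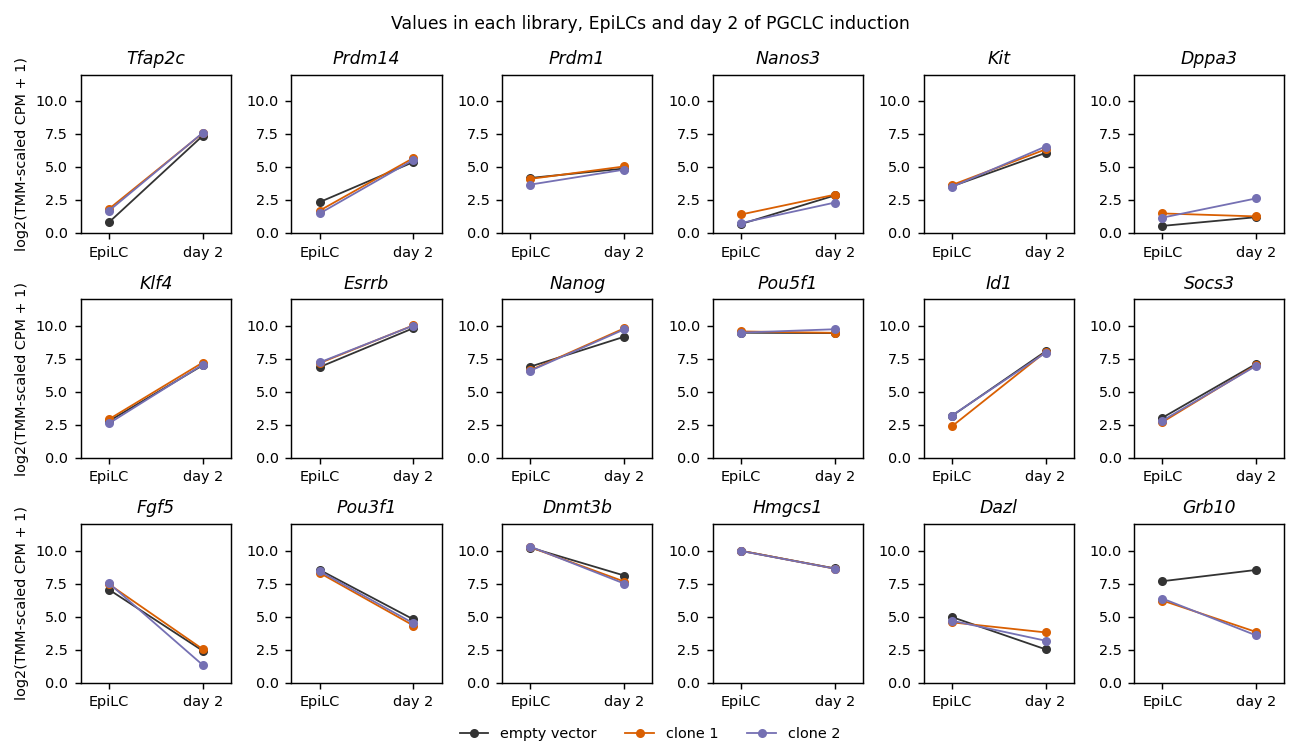
Values of 18 genes in the 6 libraries, on the log2(TMM-scaled CPM + 1) scale, with a line joining the EpiLC and the day 2 library of the empty-vector line (black), clone 1 (orange) and clone 2 (violet). Tfap2c, Prdm14, Klf4, Id1 and Socs3 rose in each line, Fgf5, Pou3f1 and Dnmt3b fell in each line, and Grb10 went up in the empty-vector line and down in both clones.

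Genes of naive pluripotency, the state before implantation, rose as well. On this list 13 of 17 genes were called higher and 3 lower, with a median of 1.61, and the summed level of the list was 1481 to 1672 in EpiLCs and 4591 to 5161 at day 2. Klf4, a Krüppel-like transcription factor, was at 5.86, 6.56 and 5.08 in EpiLCs and 128, 147 and 132 at day 2 (log2 fold change 4.33, SE 0.0856, adjusted p 3.26e-25). Tfcp2l1, a target of STAT3, went from 32.1, 30.4 and 34.6 to 387, 481 and 475 (log2 fold change 3.74, SE 0.0759, adjusted p 3.26e-25). For both, all day 2 libraries lay far above all EpiLC libraries. Esrrb, an orphan nuclear receptor, was at 116, 143 and 148 in EpiLCs and 904, 1049.9 and 1034 at day 2 (log2 fold change 2.87, SE 0.0697, adjusted p 1.75e-23). Tbx3 (4.27), Klf5 (3.45), Nr5a2 (2.78), Klf2 (2.69), Zfp42 (2.43), Spp1 (1.61) and Fbxo15 (1.28) were called higher, and Nr0b1 (0.73), Tdh (0.60) and Dppa5a (0.35) rose less. The homeobox gene Gbx2 (-0.69) and the paired genes Dppa2 (-0.24) and Dppa4 (-0.34) were called lower. Fgf4 did not pass the test (0.07, adjusted p 0.574). It was called higher without the EpiLC library of the empty vector (0.26, adjusted p 0.00815) and without the empty-vector line (0.32, adjusted p 2.57e-05). The call of Dppa2 was lost in 13 and that of Dppa4 in 4 of the 19 alternative fits.

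The 3 factors at the centre of pluripotency moved apart. Nanog was at 119, 98.3 and 95.6 in EpiLCs and 574, 894 and 844 at day 2, above the EpiLC range in every line (log2 fold change 2.85, SE 0.105, adjusted p 3.53e-19). Sox2 went from 280.2, 272 and 276 to 814, 857 and 878, also without overlap (log2 fold change 1.62, SE 0.0651, adjusted p 3.36e-18). Pou5f1, which encodes OCT4, was at 708, 759.7 and 712 in EpiLCs and 696, 705 and 852 at day 2, and the groups overlapped (log2 fold change 0.04, SE 0.0755, adjusted p 0.683). Sall4 (0.49) and the NODAL co-receptor Tdgf1 (0.32) were called higher, whereas Utf1 (-0.52), L1td1 (-0.61), Rif1 (-0.32), Trim28 (-0.29) and Zfp281 (-0.27) were called lower. Over the 10 genes of this list 4 were called higher and 5 lower, and the median was -0.12. With quantile normalization 5 were called higher and 2 lower, the median was 0.06, and Pou5f1 was called higher (0.23, adjusted p 0.00741). Leaving out single libraries or lines moved the median between -0.16 and -0.0344.

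LIF signals through Lifr and Il6st to STAT3, and components and targets of this path were higher at day 2. Of 11 genes, 10 were called higher and none lower, with a median of 2.05. The receptor subunits Il6st (1.56) and Lifr (0.54) rose. Stat3 itself was at 14.7, 15.1 and 17.7 in EpiLCs and 74.7, 67.3 and 63.3 at day 2 (log2 fold change 2.05, SE 0.102, adjusted p 5e-16). Socs3, a feedback inhibitor that STAT3 induces, was at 7.21, 5.52 and 6.04 in EpiLCs and 138, 129.6 and 124 at day 2, with no overlap (log2 fold change 4.19, SE 0.0981, adjusted p 1.29e-23). Bcl3, an I-kappa-B family protein, went from 0.901, 0.447 and 0.687 to 34, 40.4 and 40.4 (log2 fold change 4.55, SE 0.16, adjusted p 1.32e-19), and Junb, a subunit of AP-1, had a log2 fold change of 3.33. Pim1 (0.41) and Socs2 (0.43) changed less. The kinase Jak1 was not called (0.14, adjusted p 0.319). Klf4 and Tfcp2l1 stand on both this list and the naive list.

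The genes that mark the epiblast state fell. On the formative list 15 of 17 genes were called lower and 1 higher, with a median of -2.39. Fgf5 (chr5:98254184-98277030, plus strand), the growth factor that defines the post-implantation epiblast, was at 131, 174 and 183 in EpiLCs and 4.31, 4.78 and 1.51 at day 2. It had the largest decrease under the naming rule (log2 fold change -5.25, SE 0.292, adjusted p 6.28e-15), and all EpiLC libraries lay far above all day 2 libraries. Pou3f1 (OCT6) went from 370.0, 316 and 345 to 26.6, 18.9 and 21.5 (log2 fold change -3.89, SE 0.153, adjusted p 1.81e-18). Otx2, a homeobox factor that restrains entry into the germ line, was at 242, 271 and 287 in EpiLCs and 49.8, 45.3 and 55.4 at day 2 (log2 fold change -2.39, SE 0.156, adjusted p 2.31e-13). The 4 EpiLC markers, Fgf5, Pou3f1, Otx2 and Dnmt3b, were thus well above the floor in every EpiLC library, as the label says, and lower in every day 2 library. Lef1 (-4.41), Sox3 (-2.74), Sall2 (-2.44), Car4 (-2.42), Foxd3 (-1.999) and Grhl2 (-1.43) fell by over 1 on the log2 scale, while Zic2 (-0.63), Etv4 (-0.43) and Etv5 (-0.42) were called lower with smaller changes. Zic5 was not called (-0.29, adjusted p 0.0519), but was in 6 of the 19 alternatives, and the bHLH factor Tcf15 was called higher (0.70).

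The enzymes that set new DNA methylation were lower at day 2, whereas the maintenance enzyme did not pass the test. Dnmt3b was at 1196, 1220.2 and 1261 in EpiLCs and 275, 200.3 and 180.1 at day 2 (log2 fold change -2.51, SE 0.0922, adjusted p 3.75e-19). Dnmt3a went from 934, 861 and 868 to 191, 129.9 and 134 (log2 fold change -2.56, SE 0.0845, adjusted p 2.79e-20), and the cofactor Dnmt3l from 159, 118 and 124 to 15.1, 7.09 and 6.21 (log2 fold change -3.77, SE 0.189, adjusted p 5.72e-16). For all 3, no day 2 library reached the lowest EpiLC library. Uhrf1, which brings DNMT1 to replicated DNA, was called lower (-0.59), and Dnmt1 was at 150.4, 142 and 142 in EpiLCs and 171, 147 and 151 at day 2 (log2 fold change 0.11, SE 0.0863, adjusted p 0.325). Among the dioxygenases that oxidise methylcytosine, Tet2 was at 91.3, 71 and 76.4 in EpiLCs and 566, 637 and 596 at day 2 (log2 fold change 2.90, SE 0.0804, adjusted p 5.03e-22), Tet1 was called higher with 0.40, and Tet3 was not called (-0.38, adjusted p 0.0712), but was in 4 of the 19 alternatives. Zfp57 (0.95), which protects imprints, Mbd2 (0.85) and Uhrf2 (0.33) were called higher. Over these 13 genes, 5 were higher, 4 lower and 4 not called.

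Genes of later germ cell development went the other way from the specification genes in these lines. Of 20 genes, 15 passed the filter on low values. Of these 12 were called lower and 3 higher, with a median of -1.19, and the summed level of the list was 501 to 624 in EpiLCs and 155 to 209 at day 2. Dazl, an RNA-binding protein of gonadal germ cells, was at 30.3, 22.7 and 24.9 in EpiLCs and 4.74, 12.9 and 8.02 at day 2 (log2 fold change -1.58, SE 0.214, adjusted p 5.23e-07). Tex19.1, which restrains retrotransposons, went from 190.3, 93.9 and 99.7 to 31.5, 33.1 and 37.5 (log2 fold change -1.81, SE 0.193, adjusted p 7.09e-09). The piRNA pathway genes Tdrd1 (-1.37), Tdrd12 (-1.23), Mael (-1.19) and Mov10l1 (-0.72) fell, as did Rpl10l (-1.84), Hormad1 (-1.52), Taf7l (-1.35), Slc25a31 (-1.03), Stk31 (-0.71) and the helicase gene Ddx4 (-0.54). Stra8, the retinoic acid-responsive regulator of meiotic entry, was at 0, 0 and 0 in EpiLCs and 9.77, 7.24 and 6.51 at day 2. It was listed at 0 in all 3 EpiLC libraries and lay above the floor in all day 2 libraries (adjusted p 8.37e-12). Sycp3 (0.76), a synaptonemal complex protein, and Piwil2 (0.49), also of the piRNA pathway, were called higher too. The number of called genes on this list rested on single libraries, with 9 of 15 called without the EpiLC library of the empty-vector line and 8 without clone 1. The list's median without them was -0.81 and -1.07. With quantile normalization 1 gene of the list was called higher and 12 lower. Of the 19 alternative fits, the calls were lost in 11 for Sycp3, 10 for Piwil2, 9 for Ddx4, 8 for Stk31 and 8 for Mov10l1. Sycp3 was not called by edgeR (1.49, adjusted p 0.0509) or by DESeq2 (1.60, adjusted p 0.096).

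Many promoters on the late germline list hold the palindromic E-box with the letters CACGTG. It was searched in RefSeq windows of 300 bases, from 250 before to 50 after each start, in GRCm38.p6, and as a palindrome it reads the same on both strands. It was found in 15 of 24 windows of this list (62.5%), against 7.15% of all 32851 windows and 10.01% of the windows of tested genes. Of the 12 genes of the list called lower, all had a window and 8 held the motif. The shares among tested genes called higher (10.6%), called lower (10.4%) and not called (9.52%) lay close together. The matching windows of 3 genes called lower and of Sycp3, called higher, are shown because they carry this shared feature, with the motif in capitals. A match is a description of the letters and not a mapped site.
Slc25a31, chr3:40708621-40708920, plus strand: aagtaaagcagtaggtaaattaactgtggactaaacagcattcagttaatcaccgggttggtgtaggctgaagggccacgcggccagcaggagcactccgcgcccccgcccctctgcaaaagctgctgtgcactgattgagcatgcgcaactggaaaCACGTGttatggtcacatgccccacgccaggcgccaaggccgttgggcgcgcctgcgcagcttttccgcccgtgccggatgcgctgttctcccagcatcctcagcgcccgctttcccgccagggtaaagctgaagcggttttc
Hormad1, chr3:95559427-95559726, plus strand: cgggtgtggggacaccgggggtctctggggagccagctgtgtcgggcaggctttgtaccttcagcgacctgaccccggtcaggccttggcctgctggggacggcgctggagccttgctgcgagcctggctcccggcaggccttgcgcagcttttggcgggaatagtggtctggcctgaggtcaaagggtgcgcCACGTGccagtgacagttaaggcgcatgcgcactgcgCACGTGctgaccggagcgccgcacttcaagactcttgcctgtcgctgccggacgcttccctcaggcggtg
Taf7l, chrX:134476441-134476740, minus strand: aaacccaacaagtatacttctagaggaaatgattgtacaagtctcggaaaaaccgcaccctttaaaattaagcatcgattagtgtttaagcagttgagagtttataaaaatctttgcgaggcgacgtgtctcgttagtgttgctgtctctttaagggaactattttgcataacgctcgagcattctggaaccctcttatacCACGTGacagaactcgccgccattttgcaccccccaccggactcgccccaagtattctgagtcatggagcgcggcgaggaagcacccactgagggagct
Sycp3, chr10:88459337-88459636, plus strand: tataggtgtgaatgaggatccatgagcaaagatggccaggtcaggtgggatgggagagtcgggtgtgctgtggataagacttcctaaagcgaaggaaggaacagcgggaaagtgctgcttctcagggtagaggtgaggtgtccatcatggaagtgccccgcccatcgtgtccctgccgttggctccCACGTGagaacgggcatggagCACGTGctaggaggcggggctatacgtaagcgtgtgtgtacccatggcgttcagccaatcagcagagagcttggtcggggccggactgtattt
Hormad1 and Sycp3 have 2 such motifs each and Slc25a31 and Taf7l 1 each. A variant Polycomb complex binds E-boxes and silences germline genes in embryonic stem cells, and RNAs of its subunits were measured too. L3mbtl2 (-1.10), E2f6 (-0.85) and Pcgf6 (-0.35) were called lower, and Mga was at 948, 866 and 886 in EpiLCs and 963, 953 and 835 at day 2 and not called (adjusted p 0.796), although it was called higher with quantile normalization (0.17, adjusted p 0.0248). Of the 19 Polycomb and histone methylation genes, 7 were called higher, among them Phf19 (1.25) and Ezh1 (0.92), and 4 lower, and Ezh2 was not called (adjusted p 0.177).

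BMP signalling starts germ cell fate, and its immediate target Id1 was among the 15 largest increases. Of 6 target genes, 5 were called higher and 1 lower, with a median of 2.74. Id1, an inhibitor of bHLH factors, was at 7.96, 4.18 and 8.1 in EpiLCs and 266, 258 and 247 at day 2 (log2 fold change 5.10, SE 0.124, adjusted p 1.75e-23). Id3 went from 5.56, 6.11 and 5.91 to 68.2, 46.4 and 55.3 (log2 fold change 3.05, SE 0.136, adjusted p 3.8e-17). Id2 (2.82), Id4 (2.65) and the homeobox gene Msx2 (2.58) rose in the same way, with every day 2 library above every EpiLC library, whereas Msx1 fell (-1.16). Of the ligands, Bmp4 was at 5.11, 6.56 and 3.98 in EpiLCs and 47, 38.1 and 44.2 at day 2 (log2 fold change 2.84, SE 0.132, adjusted p 9.93e-17), Bmp7 rose (1.87) and Bmp8b fell (-1.48). Among 10 receptors and SMADs, Smad4 was called higher (0.33) and Bmpr1a lower (-0.28), and 8 were not called, and with quantile normalization 1 was called, higher. The inhibitory SMADs that BMP induces, Smad6 (1.60) and Smad7 (0.79), were higher. The antagonist Fst, follistatin, fell from 15.2, 28.6 and 17.7 to 2.59, 1.69 and 2.12 (log2 fold change -2.74, SE 0.262, adjusted p 8.27e-10), and the pseudoreceptor Bambi was lower (-0.57).

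WNT and NODAL genes changed in both directions. Among 16 tested WNT ligands and receptors, 6 were called higher and 7 lower. Wnt3a (1.78), Fzd5 (1.87) and Porcn (1.05), the acyltransferase that readies WNT ligands for secretion, rose, while Wnt8a (-1.44) and Fzd2 (-1.31) fell. Wnt3, the ligand needed for the primitive streak, was at 7.36, 2.09 and 3.16 in EpiLCs and 4.45, 2.77 and 3.18 at day 2 and not called (adjusted p 0.798). Of 19 effectors, targets and inhibitors, 5 were called higher and 7 lower. Lef1, which transmits the signal to DNA, was at 195, 170.3 and 173 in EpiLCs and 12.5, 5.55 and 5.9 at day 2 (log2 fold change -4.41, SE 0.186, adjusted p 9.75e-18), and Tcf7l2 (-1.40), Sp8 (-1.28) and the feedback gene Axin2 (-0.86) fell. The inhibitors Rnf43 (1.98) and Sfrp1 (1.10) rose. In the NODAL pathway 5 of 13 tested genes were higher and 6 lower. The ligand Nodal (-0.43), its inhibitor Lefty1 (-1.11) and the transcription factor Foxh1 (-1.15) fell, whereas Lefty2 (1.03), the receptor Acvr1b (1.25) and the convertase genes Furin (1.60) and Pcsk6 (1.12) rose.

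FGF drives ERK in the epiblast, and 24 genes of this path were split between 7 called higher and 11 lower. The ligands Fgf5, Fgf8 (-1.74) and Fgf15 (-1.67) fell, with the transcription factor Etv1 (-1.36), the phosphatase Dusp4 (-1.74) and Myc, which was at 201, 129 and 130.2 in EpiLCs and 69, 38.8 and 35.7 at day 2 (log2 fold change -1.69, SE 0.172, adjusted p 2.97e-09). The immediate early gene Fos was at 1.35, 1.94 and 3.02 in EpiLCs and 6.9, 18.2 and 23.8 at day 2 (log2 fold change 2.36, SE 0.23, adjusted p 1.22e-09). Egr1, another early response gene, went from 14.9, 18.3 and 15.8 to 34.5, 56.8 and 50.7 (log2 fold change 1.45, SE 0.116, adjusted p 2.06e-11). In both genes the empty-vector line had the lowest day 2 value, still above every EpiLC library. The feedback inhibitors Spry4 (1.71) and Spry2 (1.32) rose, and the ERK phosphatase Dusp6 was called lower with a small change (-0.20).

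Few genes of the primitive streak rose. The brachyury gene T was at 0.751, 0.298 and 0.275 in EpiLCs and 0.575, 0.462 and 0.454 at day 2 (log2 fold change 0.07, SE 0.346, adjusted p 0.89). Eomes, a T-box factor of the streak, fell from 40.4, 36.4 and 42.3 to 11.8, 6.32 and 9.84 (log2 fold change -2.02, SE 0.17, adjusted p 5.82e-11). Of 27 primitive streak and mesoderm genes 16 passed the filter, 1 was called higher, Evx1 (0.95), and 6 lower, among them Fgf8 and Twist1 (-1.07). Without clone 1, or without clone 2, 4 genes of this list were called. Mixl1 was at 1.64 to 2.34 in EpiLCs and 0.462 to 1.15 at day 2, under the filter. Of the definitive endoderm list, Sox17 was at 0.298 to 0.451 in EpiLCs and 0 to 0.287 at day 2, and 6 of 10 genes passed the filter. Its summed level was 47.6 to 90.2 in EpiLCs and 274 to 374 at day 2, and most of that sum was Trh, a hormone precursor gene. Trh was at 34.2, 74.9 and 61.3 in EpiLCs and 256, 314 and 351 at day 2 (log2 fold change 2.47, SE 0.127, adjusted p 9.41e-16). Foxa3 was the other gene called higher (1.495), and without the empty-vector line 4 genes were called. Of 15 neuroectoderm genes, 7 passed the filter and 4 were called higher, Olig3 (2.38), Nes (1.08), Pax6 (0.94) and Tubb3 (0.77), with Sox11 lower (-0.92). Without the filter, 9 of the 15 were called in place of 5.

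Markers of cell types that a culture of this kind could also hold were summed per library. The trophoblast list was 33.9 to 43.5 in EpiLCs and 76.9 to 97.1 at day 2, with 4 of 7 tested genes called higher and 1 lower. Its rise included Gata2 (1.84) and Tead4, at 2.7, 3.28 and 3.3 in EpiLCs and 23.8, 37.7 and 32.8 at day 2, and the defining placental gene Prl3d1 was at 0 in all 6 libraries. Without the EpiLC library of clone 2, the day 2 library of clone 1 or the whole line of clone 2, 3 genes of the list were called in place of 5. The visceral endoderm list was 46.5 to 53 in EpiLCs and 16.3 to 24.3 at day 2, with Ttr at 0 throughout, 1 of 6 tested genes higher, the laminin gene Lama1 (1.98), and 3 lower. Without the filter, or with a mean of at least 5 required, 2 genes of this list were called, 50% of them higher. The endothelium and blood list was 52.9 to 78.3 in EpiLCs and 75.7 to 90.0 at day 2, with 1 of 7 tested genes higher and 2 lower. Hbb-bh1, Emcn and Ptprc were at 0 in all 6 libraries. With a mean of at least 5 required, 1 gene of this list remained, and it was called higher (0.93). In the degron experiment Pecam1 was at 78.5 and 69.8 in EpiLCs and 77.1 and 73.8 at day 2 with DMSO, far above the other tested members. The sum thus says little about the list as a whole. The fibroblast list was 18.7 to 25.1 in EpiLCs and 16.8 to 24 at day 2, with 0 of 5 tested genes higher and 1 lower, and with Col1a2, Col3a1, Postn, S100a4 and Fap at 0. The part of the trophoblast list's sum in the other results was not tested.

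**Figure D3:**
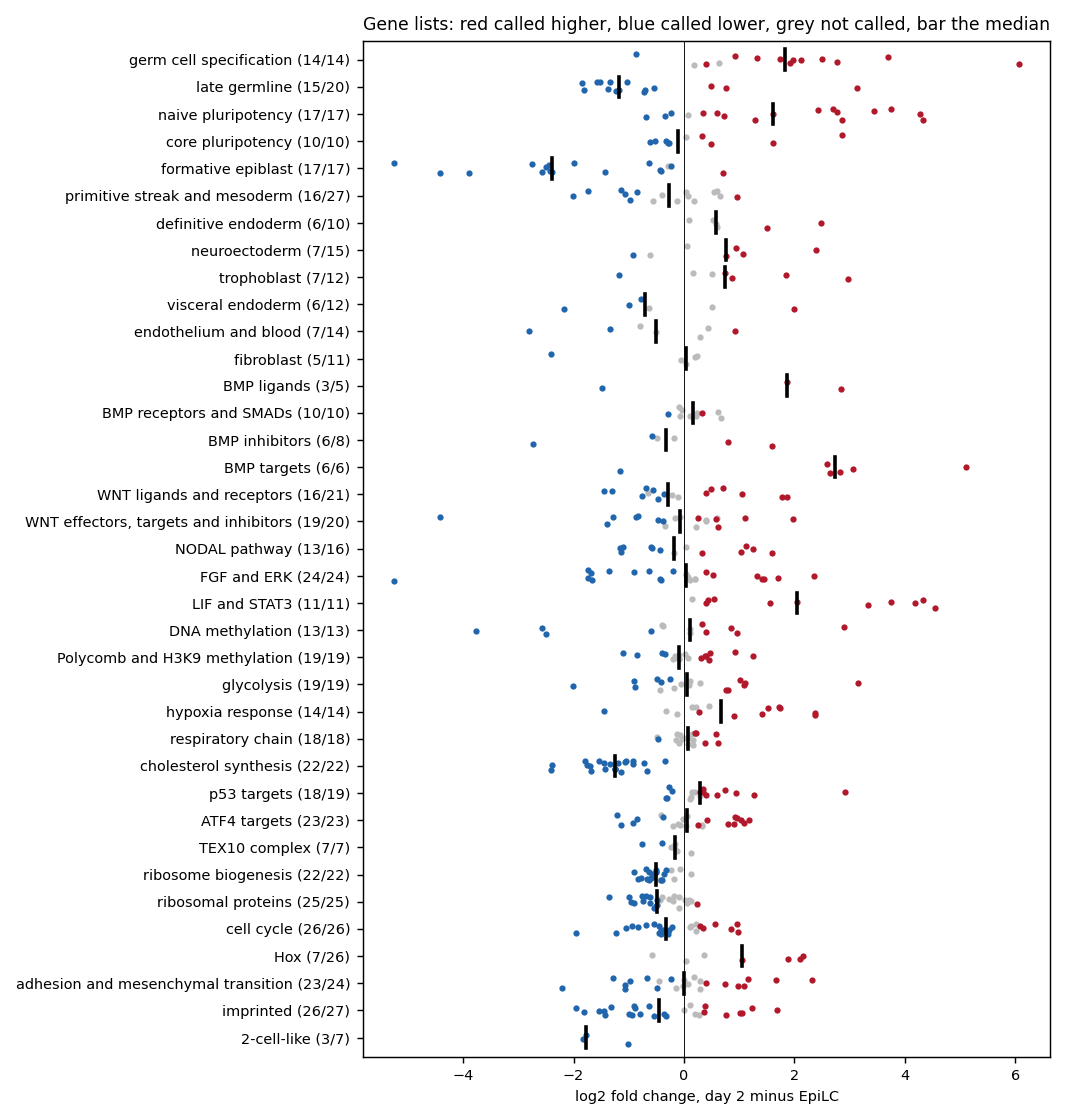
Log2 fold change from EpiLC to day 2 for the tested members of 37 gene lists, 1 list a row, with the number tested and the number on the list in brackets. Red dots were called higher, blue dots lower and grey dots neither, and the black bar is the list's median. The cholesterol list lies wholly below 0, the formative epiblast list almost wholly below and the germ cell specification, naive and LIF lists mostly above.

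Cholesterol synthesis fell as a whole pathway. All 22 genes on the list were called lower, with a median of -1.25, where 22.1% of all genes were lower, and the summed level was 4777 to 5064 in EpiLCs and 1990.1 to 2103 at day 2. Hmgcs1 (chr13:119690379-119708260, plus strand), which makes HMG-CoA, was at 1009.9, 1012 and 1002 in EpiLCs and 399, 396 and 395 at day 2 (log2 fold change -1.34, SE 0.0677, adjusted p 6.36e-16). Fdps, which makes farnesyl diphosphate, went from 17.6, 21 and 18.3 to 2.87, 1.23 and 5.15 (log2 fold change -2.40, SE 0.278, adjusted p 3.14e-08). In both genes every day 2 library lay below every EpiLC library. In the branch that follows squalene, Sqle (-1.69), Lss (-1.80), Cyp51 (-1.26), Msmo1 (-1.68), Hsd17b7 (-1.44) and Dhcr7 (-1.05) were lower. So was the sterol sensor partner Insig1 (-1.75). Srebf2, the transcription factor that drives the pathway when sterols are scarce, had the smallest change of the list (log2 fold change -0.35, SE 0.0741, adjusted p 0.000314).

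Of these 22 genes 14 had a RefSeq promoter window in GRCm38.p6, 17 windows in all. The CCAAT letters, bound by NF-Y, which works with the sterol factor, were found on either strand in 14 of the 14 genes and in 14 of 17 windows (82.4%), against 37.4% of all windows. The sterol element letters TCACNCCA, on either strand, were found in 3 of 17 windows (17.6%), those of Hmgcs1, Msmo1 and Srebf2, against 4.36% of all windows. The windows of Hmgcs1 and Msmo1 are shown because they hold both, with the sterol letters and the CCAAT letters, or their reverse complements, in capitals.
Hmgcs1, chr13:119690101-119690400, plus strand: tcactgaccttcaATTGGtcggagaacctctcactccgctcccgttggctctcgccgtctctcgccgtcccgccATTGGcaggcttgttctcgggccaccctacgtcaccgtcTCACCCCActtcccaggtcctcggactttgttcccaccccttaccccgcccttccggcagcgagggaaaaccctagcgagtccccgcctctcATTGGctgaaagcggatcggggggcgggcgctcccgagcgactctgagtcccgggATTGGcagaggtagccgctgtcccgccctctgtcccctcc
Msmo1, chr8:64733529-64733828, minus strand: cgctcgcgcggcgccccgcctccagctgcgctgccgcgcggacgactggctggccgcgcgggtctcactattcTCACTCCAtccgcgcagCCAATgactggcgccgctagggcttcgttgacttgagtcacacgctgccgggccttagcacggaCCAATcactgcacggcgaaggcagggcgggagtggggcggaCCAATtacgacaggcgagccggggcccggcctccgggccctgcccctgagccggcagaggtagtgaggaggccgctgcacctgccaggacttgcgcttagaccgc
Hmgcs1 has 4 CCAAT matches and Msmo1 3, beside 1 sterol match each. The sterol letters stood in 3.93% of the windows of tested genes called lower and 4.08% of those not called. They were also in 3 of 24 windows of the late germline list (12.5%). Among the other motifs searched, the GC box (GGGCGG) was in 14 of the 17 cholesterol windows too, against 35.7% of all and 63% of tested windows. No binding was measured here, and a window without the letters says nothing about the factor.

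Genes that respond to low oxygen rose in these lines, while glycolysis genes were called in both directions. On the hypoxia list 8 of 14 genes were called higher and 1 lower, with a median of 0.67, which was 0.45 without the EpiLC library of the empty vector and 0.44 without that line. Vegfa was at 6.46, 10.1 and 7.83 in EpiLCs and 56.7, 43 and 38.4 at day 2 (log2 fold change 2.36, SE 0.154, adjusted p 2.27e-13). Adm, adrenomedullin, rose (2.37), as did Ddit4 (1.74), the collagen hydroxylase subunit P4ha1 (1.72), the oxygen sensors Egln3 (1.52) and Egln1 (0.90), Ndrg1 (1.41) and Kdm3a (0.28). Car9, carbonic anhydrase 9, fell (-1.44), and Bnip3 was not called (0.23, adjusted p 0.168). Of 19 glycolysis genes 6 were higher and 6 lower, not far above the 24.1% and 22.1% of all genes. The glucose transporter gene Slc2a3 was at 155, 114 and 113 in EpiLCs and 1143, 1124 and 1117 at day 2 (log2 fold change 3.15, SE 0.0845, adjusted p 2.31e-22), and Slc2a1 (1.09), Hk2 (1.11) and Pfkp (1.02) rose. The lactate exporter gene Slc16a3 (-2.02), Gapdh (-0.91), Ldha (-0.495) and Pkm (-0.42) fell. Of 18 respiratory chain genes 5 were higher, 1 lower and 12 not called, and without clone 2 only 2 were called.

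Genes for making ribosomes fell by modest amounts. In ribosome biogenesis 17 of 22 genes were called lower and none higher, with a median of -0.51. Npm1, nucleophosmin, was at 456, 517 and 469 in EpiLCs and 261, 243 and 313 at day 2 (log2 fold change -0.82, SE 0.0797, adjusted p 1.04e-09), and Dkc1 (-0.91), Ncl (-0.78) and the RNA polymerase I subunit Polr1a (-0.60) were lower too. Of 25 ribosomal protein genes 13 were called lower and 1 higher, with a median of -0.49, values that are uncertain because these genes have many pseudogene copies that can share reads. Tex10 belongs to a complex that matures the large ribosomal subunit. Its step did not pass the test (log2 fold change -0.24, SE 0.145, adjusted p 0.178), and without the day 2 library of the empty-vector line it was -0.40 with an adjusted p of 0.0441. Without the EpiLC library of the same line it was 0.0259 (adjusted p 0.886). Tex10 was also called lower with the libraries of the contrast alone (-0.24, adjusted p 0.0239) and without the whole empty-vector line (-0.16, adjusted p 0.0303). Of the other 6 members of the complex, Wdr18 (-0.77) and Mdn1 (-0.40) were called lower, with 1 of 3 called genes higher under quantile normalization, and without the day 2 library of the empty vector or the whole empty-vector line 4 of the 7 genes were called.

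Replication genes fell and several inhibitors of the cycle split. Of 26 cell cycle genes 16 were lower and 6 higher. The 6 MCM helicase genes were lower by 0.35 to 0.69 on the log2 scale, and Pcna, the sliding clamp, was at 208, 219 and 239 in EpiLCs and 107, 118 and 119 at day 2 (log2 fold change -0.95, SE 0.0822, adjusted p 1.11e-10). Ccne2 (-1.05) and Ccnd1 (-0.84) fell, while Ccnd2 (0.84) and Ccnd3 (0.56) rose. The inhibitor gene Cdkn1b rose (0.95), Cdkn1a rose less (0.34), and Cdkn1c (-1.95) and Cdkn2a (-1.24) fell. Of 18 tested p53 targets 9 were higher and 4 lower (11 and 1 with quantile normalization), led by Perp (2.92), a desmosome protein, and Gdf15 (1.28). Without the variance trend 7 p53 targets were called in place of 13. Of 23 targets of ATF4, the factor of the amino acid and integrated stress response, 9 were higher and 5 lower, the latter close to the 22.1% of all genes. Vldlr (1.17), Pycr1 (1.08) and Ddit3 (1.04) rose, and the cystine transporter gene Slc7a11 (-1.22) and Atf5 (-1.14) fell.

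Adhesion genes had counts not far from the background. Of 23 tested genes 7 were higher and 8 lower, beside 24.1% and 22.1% of all genes. Cdh2, N-cadherin, was at 7.66, 9.99 and 8.24 in EpiLCs and 1.44, 1.54 and 0.454 at day 2 (log2 fold change -2.20, SE 0.286, adjusted p 2.54e-07), and Vim, vimentin, fell from 108, 108 and 107 to 72.4, 32.2 and 35.1 (log2 fold change -1.29, SE 0.134, adjusted p 4.2e-09). Cdh1, E-cadherin, was called lower with a small change (-0.23). The tight junction genes Cldn7 (2.32), Cldn4 (1.67) and Cldn6 (0.97) rose.

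Some of the largest changes lay outside these lists. All 15 genes of each direction had adjusted p-values of at most 1.58e-12 for the increases and 1.14e-12 for the decreases, with steps of at least 3.69 up and 3.35 down. Inhbb, the beta B subunit of inhibins and activins, was at 1.95, 0.447 and 0.549 in EpiLCs and 94.4, 92.1 and 98.8 at day 2 (log2 fold change 5.68, SE 0.168, adjusted p 1.85e-21). The water and glycerol channel gene Aqp3 (4.96), Padi2 (4.74), which converts arginine to citrulline, the receptor gene Notch4 (3.78) and Lrrc15 (3.69) rose in the same way. Fabp3-ps1 (4.17) is a processed pseudogene that can share reads with Fabp3, so its value is uncertain. On the falling side, Ryr3, a calcium release channel, was at 55.7, 66.8 and 67.6 in EpiLCs and 1.15, 0.462 and 0.757 at day 2 (log2 fold change -5.18, SE 0.264, adjusted p 8.44e-16). The neurofilament gene Nefl (-4.13), the glutamate receptor gene Grm6 (-4.57), Ccno (-4.17), Capn3 (-4.01), Zfp467 (-3.98), Ttn (-3.94), Exoc3l (-3.55), Mmp25 (-3.53) and Dok2 (-3.35) fell. Xist, the RNA that coats an inactive X chromosome, was at 129.6, 114 and 121 in EpiLCs and 5.32, 4.62 and 1.21 at day 2 (log2 fold change -4.84, SE 0.273, adjusted p 8.54e-15), with all day 2 libraries far below all EpiLC libraries.

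The step was next compared between the Tex10 clones and the empty-vector line, which asks whether extra Tex10 went with a different course. With 1 control line of 1 library a stage, an effect of Tex10 and a difference between that line and the clones cannot be told apart. The chi-square per gene at day 2 was 9.49 and 9.72 between the empty vector and each clone, and 3.98 between the clones. The difference is the change in the clones minus the change in the empty-vector line. It was called for 237 genes (1.55%), 111 with a higher step in the clones (0.728%) and 126 with a lower one (0.826%), and in 76 of them the clones and the empty vector moved in opposite directions. There is 1 empty-vector library per stage, so the spread came from the clones, and the empty-vector libraries are assumed to vary like them. Without the variance trend limma called 0 genes, with 1351 at an unadjusted p under 0.05, and DESeq2 on the recovered reads called 53, all of them among the 237.

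Grb10, an imprinted gene for an adaptor that dampens growth factor signalling, differed most. It was at 204, 73.4 and 81.5 in EpiLCs and 369.9, 13.2 and 10.9 at day 2, so that it went up in the empty-vector line and down in both clones, which were already lower as EpiLCs. The difference was -3.44 (SE 0.208, adjusted p 7.37e-23). In the degron experiment Grb10 was at 50.2 and 45.5 in EpiLCs and 108 and 138 at day 2 with DMSO (log2 fold change 1.33). The other genes with the largest lower steps in the clones were Trim67, at -2.31 (SE 0.468, adjusted p 0.00134), Rnf225, at -2.02 (SE 0.481, adjusted p 0.0105), the neural factor Sox1, at -1.69 (SE 0.397, adjusted p 0.00914), and Fignl2, at -1.69 (SE 0.362, adjusted p 0.0028). Higher steps were seen for Nup62cl, which was at 6.46, 3.28 and 3.57 in EpiLCs and 4.31, 15.3 and 14.2 at day 2, with a difference of 2.32 (SE 0.475, adjusted p 0.00149). Eml2 followed with 1.88 (SE 0.513, adjusted p 0.0349), then Gadd45g with 1.64 (SE 0.408, adjusted p 0.0155), Ephx1 with 1.57 (SE 0.445, adjusted p 0.0467) and Padi2 with 1.55 (SE 0.42, adjusted p 0.0323). Of 13 alternative fits of this difference, the call was lost in 8 for Padi2, 7 for Ephx1, 5 for Eml2 and 1 for Grb10.

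Of the 501 tested genes on the lists, 43 were called for this difference, beside 1.55% of all genes. Of 17 naive genes 5 had a higher step in the clones, among them Tbx3 at 0.58 (SE 0.142, adjusted p 0.0146), Nr5a2 at 1.08 (SE 0.174, adjusted p 2.41e-05) and Zfp42 at 0.70 (SE 0.101, adjusted p 2.8e-06), and Nanog was at 0.89 (SE 0.106, adjusted p 1.17e-08). Tet2 also rose more in the clones, with a difference of 0.43 (SE 0.107, adjusted p 0.0156), and Dnmt3b fell more, with a difference of -0.59 (SE 0.132, adjusted p 0.00493). Dazl, which was at 30.3, 22.7 and 24.9 in EpiLCs and 4.74, 12.9 and 8.02 at day 2, fell less in the clones, with a difference of 1.31 (SE 0.284, adjusted p 0.00318). Tex19.1 and Rpl10l were at 1.13 (SE 0.175, adjusted p 9.75e-06) and 0.78 (SE 0.137, adjusted p 0.000128). For Tex19.1 the lines had similar values at day 2, and the empty-vector line was higher as EpiLCs, as given above. Glycolysis held 5 such genes, among them Slc2a3 at 0.42 (SE 0.0993, adjusted p 0.0101) and Slc16a3 at -0.48 (SE 0.124, adjusted p 0.0211), and Vegfa was at -0.88 (SE 0.217, adjusted p 0.0141). Among the 17 formative genes 2 were called, Dnmt3b and Etv4, and among the 22 cholesterol genes 0 were. For Tfap2c, Prdm14 and Prdm1 the differences were -0.73 (SE 0.219, adjusted p 0.0666), 0.99 (SE 0.287, adjusted p 0.0563) and 0.33 (SE 0.292, adjusted p 0.747), none of them called.

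**Figure D4:**
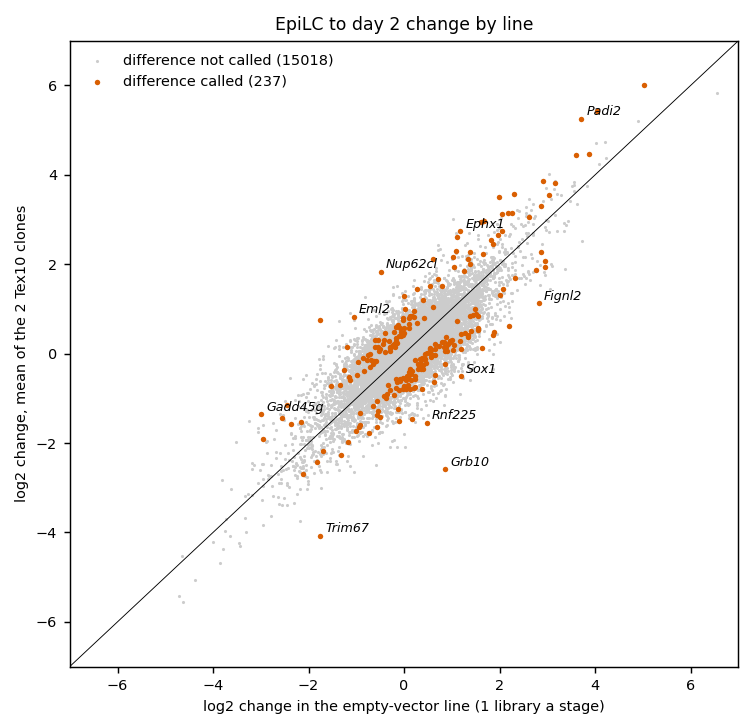
Log2 change from EpiLC to day 2 in the empty-vector line (horizontal axis, 1 library a stage) against the mean change of the 2 Tex10 clones (vertical axis), for 15255 genes on the log2(value + 1) scale, with the line of equal change. Orange dots are the 237 genes called for the difference, and the 10 with the largest differences under the naming rule are labelled. Grb10 lies right of 0 and far below the line.

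The same interval was measured in the degron experiment, with 2 untreated EpiLC libraries and 2 day 2 libraries with DMSO, none of them shared with the vector lines. Those EpiLCs were labelled untreated and the day 2 cells had the solvent, so stage and solvent cannot be told apart there, and the libraries were made with another kit than those of the vector lines. There 4347 of 16605 genes were called (26.2%), 1902 higher (11.5%) and 2445 lower (14.7%). Of the called genes 43.8% were higher, and with quantile normalization 53.3% of 3765, so that the order of the directions turned. Of 14388 genes tested in both experiments, 2754 were called in both, which is 40.5% of the 6802 called in the vector lines and 68.3% of the 4030 called in the degron experiment. The direction was the same for 2522 of them (91.6%). Across all 14388 genes the 2 sets of fold changes correlated with r = 0.642 and rho = 0.532, a description across genes that are not independent. The tables were normalized separately, and no test was made between them.

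The germ cell, naive, formative and cholesterol genes mostly had the same direction in both experiments. All 15 of the largest increases and all 15 of the largest decreases in the vector lines were called in the same direction in the DMSO cells, at log2 fold changes from 1.25 to 4.51 and from -6.00 to -1.60. Tfap2c was at 2.28 and 4.99 in EpiLCs and 104 and 90.9 at day 2 there (4.47), and Fgf5 was at 132 and 155 in EpiLCs and 1.13 and 1.36 at day 2 (-6.004). Of the germ cell specification list 10 of 14 genes were higher and 1 lower, beside 11.5% and 14.7% of all genes, with a median of 1.19. Of the naive genes 11 of 17 were higher and 4 lower, and of the formative genes 16 of 17 were lower and 0 higher. All 22 cholesterol genes were lower again, with a median of -1.12, and Hmgcs1 was at 478 and 499 in EpiLCs and 203 and 197 at day 2.

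Other groups had other values there. On the late germline list 3 of 15 genes were higher in the DMSO cells and 0 lower, the former near the 11.5% of all genes higher there (14.7% were lower), with a median of 0.25 in place of -1.19, and Dazl was at 17.1 and 19.8 in EpiLCs and 12.6 and 16.3 at day 2 (-0.34). On the hypoxia list 1 of 14 was higher and 9 lower, with a median of -0.998 in place of 0.67. Egln3 was at 32.8 and 39.4 in EpiLCs and 9.06 and 6.24 at day 2 (-2.12 against 1.52). Of the glycolysis genes 3 were higher and 12 lower, and Slc2a1 was at 187 and 217 in EpiLCs and 107 and 115 at day 2 (-0.86 against 1.09). Fos was at 41.7 and 34.7 in EpiLCs and 7.17 and 3.8 at day 2 and fell (-2.64), where it rose in the vector lines, and of 24 FGF and ERK genes 1 was higher and 15 lower. The ribosomal protein list had 0 of 25 genes called in the DMSO cells. Of 1302 genes called in the vector lines with a change of at least 1 and a mean of at least 5, 861 were called in the same and 26 in the opposite direction.

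**Figure D5:**
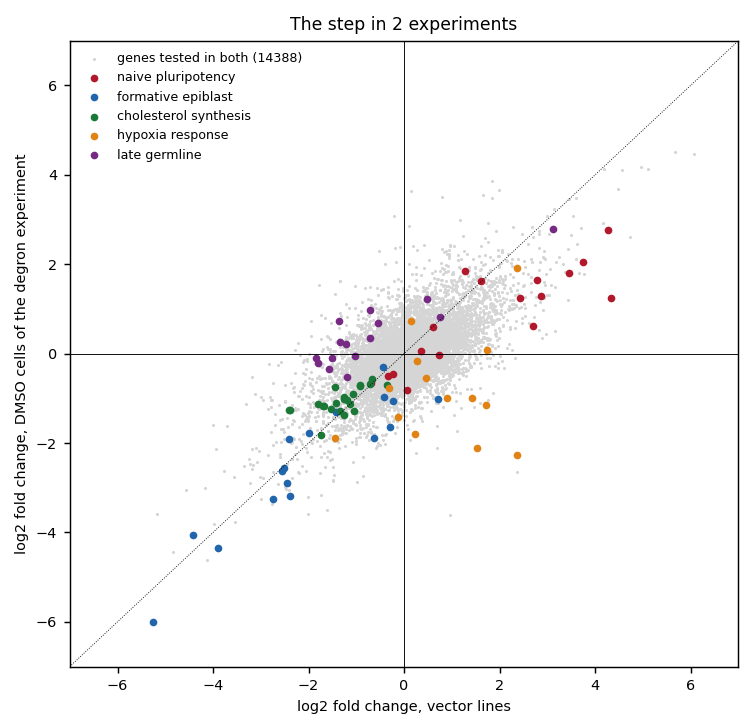
Log2 fold change from EpiLC to day 2 in the vector lines (horizontal axis) against that in the DMSO cells of the degron experiment (vertical axis) for 14388 genes tested in both, on the log2(value + 1) scale, with the line of equal change dotted. Cholesterol (green) and formative genes (blue) lie mostly at lower left, with the formative gene Tcf15 at lower right, and naive genes (red) mostly at upper right. Most hypoxia genes (orange) lie below the horizontal axis on the right, and late germline genes (violet) lie left of 0, at -0.52 to 0.98 on the vertical axis, apart from Stra8, Sycp3 and Piwil2.

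The next interval of the same lines, day 2 to day 4, shares its day 2 libraries with the step, so its values are given side by side only. Over the 15 largest increases the change from day 2 to day 4 lay between -0.98 and 1.15, with 8 called higher and 2 lower, and over the 15 largest decreases between -1.69 and 1.31, with 3 higher and 4 lower. Tfap2c, which rose by 6.07 to day 2, had -0.98 from day 2 to day 4. Nanos3 had 1.74 and then -0.10, Dppa3 had 0.63 and then -1.16, and Klf4 had 4.33 and then 0.89. Fgf5 had -5.25 and then -1.30, Dazl had -1.58 and then 1.81, and Hmgcs1 had -1.34 and then -0.15.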

How the data were processed

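RNA was measured by sequencing of total RNA in Trizol, with a Tecan mRNA kit for the vector lines and a NuGEN kit for the degron cells, per the labels' protocols. The submitters' processing notes name Bowtie2 2.3.4.3, SAMtools 1.9, HTSeq 0.11.2, edgeR 3.26.8 and the build mm10, without roles or order. The deposited signal had been TMM-scaled by the authors, per the table names. In each library 100% of values lay within 0.02 steps of a whole multiple of the step that 1 read is worth, which gives CPM over an adjusted library size, and dividing by the step gave whole reads.

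Tests used limma 3.58.1 in R 4.3.3 with a variance trend on log2(value + 1), on genes whose mean reached 1. The step was fitted as line plus stage over all 12 libraries of the experiment, the difference as construct by stage with the same line block, and the degron step over the groups of its 10 libraries. The design had foreseen a count test in case the columns held counts, which they did not as deposited, so edgeR 4.0.16 and DESeq2 1.42.0 on the recovered reads served as alternatives. The fits were also run on simulated reads that held no differences between lines beyond the changes put in. That run does not cover the spread between the real lines or the lack of a second empty-vector line. The line names of the labels give the blocks. Deviations from the stage means correlated at 0.228, 0.0416 and 0.0623 between the EpiLC and day 2 libraries of the empty vector, clone 1 and clone 2. Between different lines the values ran from -0.158 to 0.135, and those between the clones (0.135 and 0.089) exceeded the clones' own. The block was kept because the labels name the lines.

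The members, the 37 lists (590 genes, 589 in the table, 501 tested) and the tests were chosen with earlier results of these data known. Named are list members, Tex10, the 15 largest called increases and decreases with a mean of at least 5 whose stages do not overlap (without predicted gene models), and the 5 largest differences of each sign with that mean. Genes named as opposite between the experiments were chosen after their values were seen. Gene positions are from GENCODE M21 (GRCm38), promoters from RefSeq (GRCm38.p6). Counting was not stated to use strand, so overlapping and antisense genes cannot be told apart. Intervals of counting error do not cover PCR copies. Some genes that the rule names are not reported here. The testis table and the authors' own comparisons were not used here.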

Additional observations from a re-analysis of the deposited data

Results flagged for a closer look

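By limma's test, the change from EpiLC to day 2 was called different between the Tex10 clones and the empty-vector line for 42 named genes. None of these calls was kept without the variance trend. Values are the change in the clones minus the change in the empty-vector line on the log2 scale, and with 1 control line the clones' spread stands for its own. The change was higher in the clones for Nup62cl (2.32), Eml2 (1.88), Gadd45g (1.64), Ephx1 (1.57), Padi2 (1.55), Ifitm1 (1.51), Aqp3 (1.38) and Sox15 (1.33). Smaller positive differences were those of Dazl (1.31), H19 (1.19), Tex19.1 (1.13), Nr5a2 (1.08), Inhbb (0.995), Ifitm3 (0.90), Nanog (0.89), Fabp3-ps1 (0.86), Rpl10l (0.78) and Fgf4 (0.74). Further ones were Fbxo15 (0.72), Zfp42 (0.70), Ccnd3 (0.68), Pcgf6 (0.63), Tbx3 (0.58), Tet2 (0.43) and Slc2a3 (0.42). Inhbb was similar in the lines at day 2 (94.4, 92.1 and 98.8), and its difference lay in low EpiLC values (1.95, 0.447 and 0.549). Aqp3 was also low in EpiLCs (1.8, 0.298 and 0.549), with 45.1, 56.5 and 63.1 at day 2. In both genes the clones' EpiLC values were near the floor of 3 reads. Tex19.1 too had similar values in the lines at day 2. The change was lower in the clones for Grb10 (-3.44), Trim67 (-2.31), Rnf225 (-2.02), Fignl2 (-1.69), Sox1 (-1.69), Vim (-1.07), Egln1 (-0.96) and Cdkn1c (-0.93). Smaller negative differences were those of Lefty1 (-0.91), Vegfa (-0.88), Etv4 (-0.78), Lifr (-0.71), Slc2a1 (-0.63), Dnmt3b (-0.59), Trh (-0.59), Pfkp (-0.54) and Slc16a3 (-0.48).

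In the degron experiment 15 named genes were called in the direction opposite to the vector lines, with every library of each stage apart from the other stage in both experiments. The difference between the experiments was not tested. Their log2 fold changes in the DMSO cells were those of Adm (-2.27), Cdkn1c (0.73), Egln1 (-0.99), Egln3 (-2.12), Egr1 (-1.19), Fos (-2.64), Kcnq1ot1 (0.70), Mov10l1 (0.98) and Ndrg1 (-1.003). Further values were those of P4ha1 (-1.15), Pim1 (-0.74), Slc2a1 (-0.86), Slc7a11 (1.10), Tcf15 (-1.01) and Zscan4d (1.55).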

How the results depend on the processing

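The count of the step, 7059 genes, stayed within 1.5 times under pseudocount, filter, scaling, trend, edgeR (7013) and DESeq2 (6395) alternatives, and between 5135 and 6703 without each library or line. An added change of at least 1 left 1943, and the rule of at least 1 the same way in every line left 1132, without a test. Without the line as replicate block 6321 genes were called, 8 of the named genes losing their call. The degron step, 4347 genes, had 4247 with the replicate block, where same-numbered libraries shared only a number (correlation 0.118), 1467 with the added threshold and 2496 to 3098 without each library (2496 without EpiLC replicate 2 and 2889 without day 2 DMSO replicate 1). The difference between lines, 237 genes, was the least stable, with 1237 without a filter, 53 by DESeq2, 42 with the added threshold, 0 without the trend and 192 to 277 without each clone library. It could not be fitted without either empty-vector library. None of the 42 named differences kept its call under every alternative, the fit without the trend calling none, and 12 kept it under all the others, with 26 lost without the filter, 16 by DESeq2 and 10 with the libraries of the contrast alone. Pcgf6 lost it in 9 of 13, Trh in 8 and Tbx3 in 7. Under every alternative the call was kept by 194 of 228 named steps, and the uncalled steps of Dppa3, Fgf4, Mga, Pou5f1, Tet3, Tex10 and Zic5 gained one under at least 1 alternative. Leaving out clone 1 or clone 2 lost 22 and 19 named steps, the empty-vector line 9. Genes that were not called changed sign without single libraries or lines: Fgf4 (-0.0612 to 0.32), Mga (-0.0317 to 0.0855), Pou5f1 (-0.0656 to 0.12), T (-0.16 to 0.33), Tex10 (-0.40 to 0.0259) and Wnt3 (-0.30 to 0.16). With other settings these were Mga (-0.00234 with median-ratio scaling), T (-0.015 with quantile normalization) and Mga (-0.000845 with DESeq2). The number called on a list moved by over 1.5 times 31 times, among them the BMP receptors and SMADs (2 to 1 without clone 1 or clone 2) and the p53 targets (13 to 7 without the trend). Named steps that lost their call without at least 1 library or line were those of Bambi, Bmpr1a, Cdh1, Cdkn1a, Ddx4, Dppa2, Dppa4, Dppa5a, Dusp6, Etv4, Evx1, Gbx2, Grb10, Hoxb2, Kdm3a, Mael, Mov10l1, Msx1, Pcgf6, Pim1, Piwil2, Slc25a31, Smad4, Stk31, Sycp3, Tdgf1, Trim28, Twist1, Uhrf2, Zfp281 and Zfp352. Low counts limit genes near the floor of 3 reads.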

Other observations

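Imprinted genes, which are read from 1 parental copy, were called in both directions. Of 26 tested genes 15 were called lower and 7 higher (background 22.1% and 24.1%), with a median of -0.45 beside 0.01 for all genes. Mest was at 351, 286 and 277 in EpiLCs and 102, 79.2 and 76.9 at day 2 (log2 fold change -1.82, SE 0.104, adjusted p 1.04e-14). Snrpn (-1.42), Magel2 (-1.33), the antisense transcript Kcnq1ot1 (-1.53) and the growth inhibitor gene Cdkn1c (-1.95) fell, with no overlap of the stages for Mest and Cdkn1c. Phlda2, a placental growth regulator, rose (1.69), with Sgce (1.23), Zim1 (1.01) and H19 (1.05). In the DMSO cells of the degron experiment 9 of 25 were higher and 5 lower, beside 11.5% and 14.7% of all genes there, with a median of 0.14. Kcnq1ot1 overlaps its host gene, and counts are not known to use strand.

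Most Hox genes were low at both stages. Of 26 Hox genes on the list 7 passed the filter, which takes the mean over all days, so that a gene can pass through the days when it is high, and their count supports nothing. Without the filter 4 of 24 were called and the median was 0.02. Hoxa5 and Hoxb2 were among those called higher. Hoxa5 was at 0, 0.447 and 0 in EpiLCs and 6.75, 2.46 and 3.78 at day 2 (log2 fold change 2.16, SE 0.335, adjusted p 4.65e-06), and Hoxb2 was at 1.35, 0.298 and 0.275 in EpiLCs and 7.18, 0.77 and 1.36 at day 2 (log2 fold change 1.05, SE 0.315, adjusted p 0.00751). For Hoxb2 the stages overlapped, since clone 1 at day 2 lay below the empty-vector EpiLCs. Summed over the list, the empty-vector line had the highest level at both stages, 19.8 and then 61.2, against 13.9 and then 20.8 in clone 1 and 7.28 and then 26.6 in clone 2. On the list of the 2-cell-like state, a rare state of cultured stem cells, 3 genes were tested. All 3 were called lower, beside 22.1% of all genes. With a pseudocount of 0.1 the count was 2 of 3, and without the filter 5 of 6, all lower. Zscan4d was at 120.3, 66.8 and 59.1 in EpiLCs and 27.4, 20.2 and 19.2 at day 2 (log2 fold change -1.78, SE 0.172, adjusted p 1.04e-09), and Zscan4c (-1.83) and Zfp352 (-1.02) fell too. Zscan4 genes are near-identical copies, so how reads were split between them is uncertain. In the DMSO cells of the degron experiment Zscan4d was at 0 and 0 in EpiLCs and 1.38 and 2.58 at day 2, and was called higher (1.55).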
